A study of Mus musculus with 2 samples.

Results

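The Myc and Max network is a set of transcription factors that share a small number of dimer partners, and 10 of its genes were followed here in mouse haematopoietic stem cells, the bone marrow cells from which all blood lineages arise. The members were Myc, Mycn and Mycl (the MYC family), Max (the shared partner), Mxd1, Mxd3, Mxd4, Mxi1 and Mnt (the antagonists) and Mlx (a MAX-like partner). They were taken as every probe set whose only gene in the platform annotation is one of these, which gave 24 of 45037 probe sets and 10 of 18193 genes. The study hybridised total RNA of Wip1 knockout stem cells and of wild-type stem cells to Affymetrix expression arrays, with 1 array for each genotype, and both samples came from mice aged 3 months. Wip1, encoded by Ppm1d, is a phosphatase known to restrain p53 and DNA damage kinases. The sources used here do not give the allele of the knockout, the strain, the sex, the cell sort or the number of mice behind each array.

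MYC proteins bind DNA only as dimers with MAX, at the E-box sequence CACGTG and its variants, and are known mainly as activators of genes for ribosome production, biosynthesis and growth. The MXD proteins, MXI1 and MNT compete for MAX, bind the same sites and recruit the SIN3 corepressor with histone deacetylases, so the network is often described as a balance between activating and repressing dimers. MLX dimerises with MNT and some MXD proteins and with the glucose-responsive factors MondoA and ChREBP. In mouse stem cells Myc is known for control of the choice between self-renewal and differentiation, a role it shares in part with Mycn.

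Promoter sequences from RefSeq (build GRCm38.p6) are shown for the members that differed most or that hold the E-box themselves, from 250 bases before to 50 bases after the annotated gene start, 5′ to 3′ on the strand of the gene. The table held 11 promoters for 9 of the 10 members. Capitals mark the motif CACGTG, which reads the same on both strands and was searched with no overlap between matches. The motif stood in 4 of these 11 promoters (Max, Mlx, Mnt and Mxd4), against 7.15% of all 32851 promoters of the same length. Counted by gene it stood in 4 of 9, against 11.8% of the 9289 genes with a promoter that were detected (defined below). A match describes the letters only, not binding.
Mxd4, chr5:34187661-34187960, minus strand: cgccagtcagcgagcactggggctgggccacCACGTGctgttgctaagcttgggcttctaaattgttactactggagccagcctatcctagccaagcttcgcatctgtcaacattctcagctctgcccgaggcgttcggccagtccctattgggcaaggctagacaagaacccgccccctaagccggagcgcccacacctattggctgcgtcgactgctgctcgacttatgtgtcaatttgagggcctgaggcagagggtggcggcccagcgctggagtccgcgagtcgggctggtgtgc
Mnt, chr11:74830674-74830973, plus strand: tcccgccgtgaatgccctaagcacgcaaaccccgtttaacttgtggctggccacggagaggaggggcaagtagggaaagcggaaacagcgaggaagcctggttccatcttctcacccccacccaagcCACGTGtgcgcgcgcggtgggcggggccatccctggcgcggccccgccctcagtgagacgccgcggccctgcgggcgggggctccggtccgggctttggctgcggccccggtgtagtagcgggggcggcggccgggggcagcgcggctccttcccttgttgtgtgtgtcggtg
Max, chr12:76962199-76962498, minus strand: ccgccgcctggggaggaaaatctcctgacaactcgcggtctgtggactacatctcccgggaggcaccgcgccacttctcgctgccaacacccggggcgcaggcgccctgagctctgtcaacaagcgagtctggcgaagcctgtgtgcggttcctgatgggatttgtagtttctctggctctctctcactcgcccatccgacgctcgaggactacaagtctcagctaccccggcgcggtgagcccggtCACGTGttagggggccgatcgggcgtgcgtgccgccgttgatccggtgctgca
Mlx, chr11:101087040-101087339, plus strand: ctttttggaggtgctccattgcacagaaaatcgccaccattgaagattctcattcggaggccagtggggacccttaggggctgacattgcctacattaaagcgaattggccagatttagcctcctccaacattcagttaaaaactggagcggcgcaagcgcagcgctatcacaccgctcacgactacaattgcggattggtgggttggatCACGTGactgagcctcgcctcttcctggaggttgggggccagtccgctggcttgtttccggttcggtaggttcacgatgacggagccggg
Mycn, chr12:12941787-12942086, minus strand, with no match: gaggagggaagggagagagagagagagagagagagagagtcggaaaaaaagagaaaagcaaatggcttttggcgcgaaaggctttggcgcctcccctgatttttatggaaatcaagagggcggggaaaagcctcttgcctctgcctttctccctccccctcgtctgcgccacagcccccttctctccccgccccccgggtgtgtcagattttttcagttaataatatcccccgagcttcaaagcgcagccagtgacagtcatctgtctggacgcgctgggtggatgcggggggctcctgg

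The E-box began 219 bases before the annotated start in Mxd4, 123 bases before it in Mnt, 40 bases before it in Mlx and 3 bases before it in Max. The promoters of Mycn, Mycl, Mxd1, Mxd3 and Mxi1 did not hold these letters in this window.

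A test across samples needs replicates, and each genotype has 1 array, so all differences are given without one. That number of arrays sets the precision. Differences are log2 intensity in the Wip1 knockout minus wild type, after the arrays were centred by 0.01 so that the median difference over detected probe sets was 0. Detected here means above the floor on either array, the floor being that array's median over all probe sets, deposited as 25.9 in the knockout and 25.2 in the wild type. As a yardstick, the spread of the difference among probe sets that measure the same gene was pooled over the 5084 genes that allow it, and came to an SD of 0.22 on the log2 scale. This SD holds no variation between animals or arrays. The targeted gene Ppm1d read 160 in the knockout against 167 in the wild type (-0.05) in one probe set and 59.0 against 55.6 (0.10) in the other; whether these probe sets lie in the deleted part is not known here. The samples also differed in transcripts tied to sex: Y-linked Eif2s3y had 149 in the knockout against 31.8 in the wild type, and Xist, expressed from the inactive X chromosome, was lower in all 3 probe sets but bright on both arrays (3778 against 6228 in the brightest). Of 14 stem cell markers, 12 were on the array under a single gene and all 12 were detected. Among them were the receptor gene Kit (960 against 772), Procr (314 against 291) and Mecom (463 against 494). Of these 12, 6 were higher in the knockout, 5 lower and 1 (Fgd5) identical, with a median of 0.07. Of all detected genes 50% were lower. By the brightest probe set Hlf (0.70), Slamf1 (-0.66) and Tek (-0.59) differed most.

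Of the 24 network probe sets 19 were detected, covering 9 of the 10 genes, and 5 were not. The 3 members that differed most were the antagonist Mxd4 and the activators Mycn and Myc, each higher in the knockout by its brightest probe set. Of the 19 detected probe sets 11 were higher, 6 were lower and 2 held the same deposited value on both arrays. Centring puts identical values just above 0, so 13 of the 19 lay above 0, where 50.6% of all detected probe sets did. In all, 9 of the 19 differed by more than the probe set SD, 5 higher and 4 lower, where 35.5% of all 19906 detected single-gene probe sets did. At least 1.5-fold was reached by 1 of the 19, against 4.52% of all, and 2-fold by none of the 19, against 0.728%. These shares lie near the background and are not read as a result about the network as a whole. In RNA from many cells, more expressing cells and more RNA per cell cannot be told apart.

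**Figure D1:**
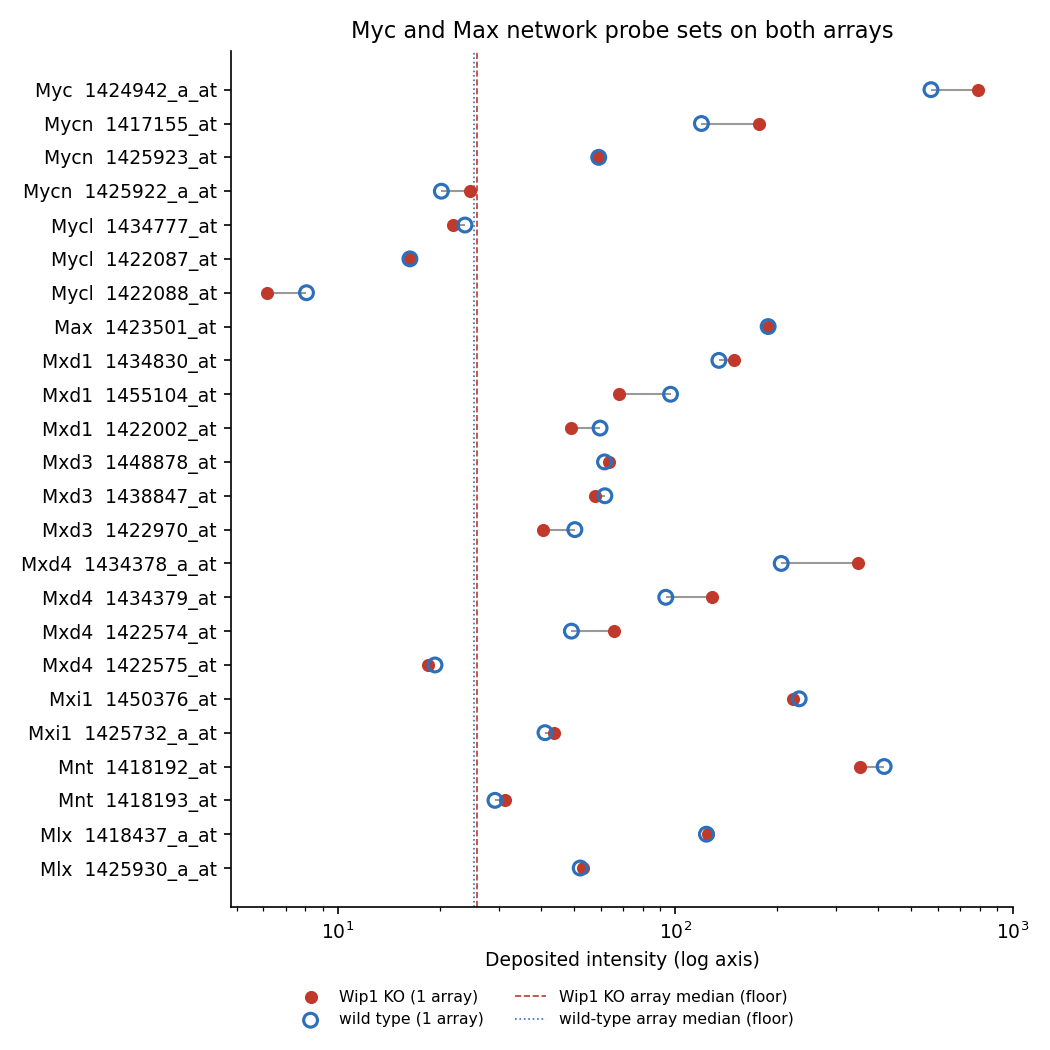
Deposited intensity (log axis) of all 24 probe sets of the 10 network genes in the Wip1 knockout (filled red) and the wild type (open blue), 1 array each; the vertical lines are the array medians used as floors. Myc reads 789 in the knockout and 573 in the wild type, Max has the same value on both arrays, and all 3 Mycl probe sets lie left of both lines.

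Myc, the founding member of the family, had an intensity of 789 on the knockout array against 573 on the wild-type array. The knockout value was the higher one, by 0.48 on the log2 scale (1.39-fold), more than the SD of 0.22 between probe sets. Only this 1 probe set (1424942_a_at) measured Myc, so no second probe set bears on the difference. In the same direction, 3.99% of the 11440 detected genes differed at least as much.

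Mycn, which encodes N-Myc and overlaps in function with Myc in blood stem cells, was measured by 3 probe sets that did not give the same answer. The brightest, 1417155_at, read 176 in the knockout against 119 in the wild type, a log2 difference of 0.58 (1.49-fold). A second, 1425923_at, read 59.3 on both arrays, to every deposited digit. The third, 1425922_a_at, lay under the floor on both, with 24.7 in the knockout against 20.2 in the wild type. The median of the 2 detected probe sets was 0.29, and 2.40% of detected genes were at least as much higher as the brightest one.

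Mycl, the L-Myc gene, was not detected. Its 3 probe sets read 21.9, 16.3 and 6.15 on the knockout array, against 23.8, 16.3 and 8.06 on the wild-type array. All of these lay under the floor, so no fold is given.

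Max, the obligate partner of the MYC proteins, had 1 probe set with an intensity of 188 on both arrays, again the same to every deposited digit. Mlx read 125 in the knockout against 124 in the wild type in one probe set, and 53.1 against 52.2 in the other. Their differences of 0.02 and 0.04 were far inside the probe set SD.

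Identical values were a feature of the file: 3 of the 24 network probe sets (for Max, Mycn and Mycl) and 2535 of all probe sets (5.63%) held exactly the same number on both arrays. Another 774 (1.72%) differed by a whole number other than 0, to within 1e-06, among them the Mxd3 probe set 1448878_at, which read 63.7 in the knockout against 61.7 in the wild type. Signals summarised separately for each array would seldom do this, and the sources used here do not say which steps made these values. A difference of 0 for Max is therefore not shown to be a measurement of no change.

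Mxd4, an antagonist known for expression in resting and differentiating cells, had the largest difference of the network. Its brightest probe set, 1434378_a_at, read 347 in the knockout against 206 in the wild type, a log2 difference of 0.77 (1.70-fold). The next, 1434379_at, read 129 against 93.7 (0.47), and the third, 1422574_at, read 65.9 against 49.2 (0.44). All 3 detected probe sets were thus higher in the knockout, each by about 2 SD between probe sets or more, but without the brightest one no network probe set reached 1.5-fold. The last, 1422575_at, was under the floor on both arrays, with 18.5 against 19.4. Of all detected genes 1.08% were at least as much higher as Mxd4.

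Mxd1, an antagonist known from the terminal differentiation of myeloid cells, went both ways. Its brightest probe set, 1434830_at, read 149 in the knockout against 135 in the wild type (0.16). The dimmer 1455104_at read 67.9 against 96.8 (-0.50) and 1422002_at read 49.2 against 59.8 (-0.27). The dimmer probe sets were thus lower in the knockout by more than the SD, while the brightest was higher by less than it, so Mxd1 has no settled direction.

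Mxd3, an antagonist known to be expressed during S phase, differed little. The probe set 1438847_at read 57.8 in the knockout against 61.8 in the wild type (-0.08), and 1448878_at differed by 0.06. Only the dimmest, 1422970_at, passed the SD, with 40.6 against 50.4 (-0.30).

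Mxi1, which encodes the antagonist MXI1, read 223 in the knockout against 233 in the wild type (-0.05) in its brighter probe set and 43.8 against 41.1 (0.11) in the other. Neither passed the SD. Mnt, the most widely expressed antagonist, read 352 in the knockout against 416 in the wild type (-0.23) in its brighter probe set, just past the SD. Its dimmer one read 31.2 against 29.2 (0.11), close to the floor and in the other direction.

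**Figure D2:**
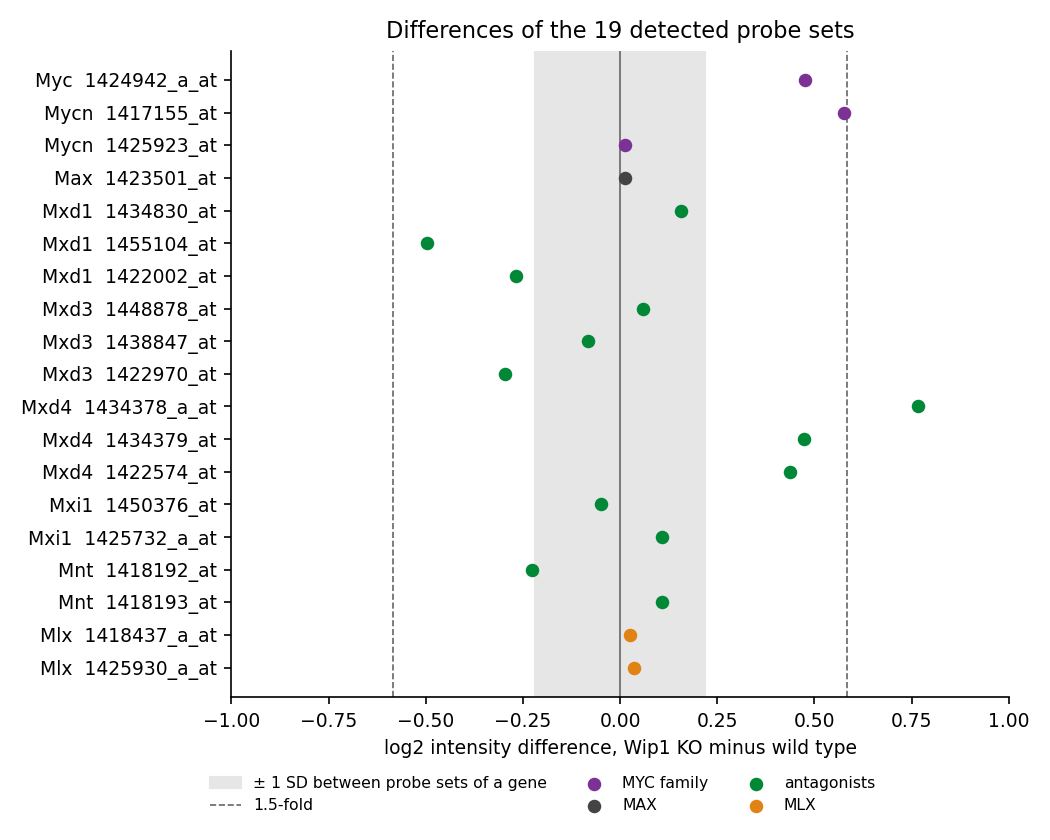
Log2 intensity difference, Wip1 knockout minus wild type, for each of the 19 detected probe sets, coloured by role; the grey band is 1 SD between probe sets of one gene (0.22) on either side of 0 and the dashed lines mark 1.5-fold. All 3 Mxd4 points and 1 each for Myc and Mycn lie right of the band, and only the brightest Mxd4 probe set passes 1.5-fold.

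The balance of the network was compared as a change only, because probe sets of different genes differ in brightness for reasons other than transcript level. What can be said of levels is which probe sets were bright. Above the 75th percentile of both arrays (113 in the knockout and 111 in the wild type) lay 8 of the 24 network probe sets, 1 each for Myc, Mycn, Max, Mxd1, Mxd4, Mxi1, Mnt and Mlx. By definition 25% of all probe sets lie above the 75th percentile of an array, so this count is not read as a result about the network. The 8 included activators, partners and antagonists, while Mxd3 and Mycl had none. By the brightest probe set of each gene, the mean log2 difference was 0.53 over the 2 detected MYC family genes and 0.14 over the 5 antagonists, so activators exceeded antagonists by 0.38. Mxd4 moved with the activators: without it the mean of the other 4 antagonists was -0.01 and the gap was 0.54. With the floor at the 25th percentile the gap was 0.17, because Mycl then counted as detected. A gap of this kind rests on a single probe set for Myc and on 1 of 3 for Mycn.

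Other proteins that work with the network went both ways as groups. Of 6 detected genes of the wider network and its corepressor, 2 were higher and 4 lower, with a median of -0.01, against 0.00020 over all 11440 detected genes. Mlxip, which encodes MondoA, read 207 in the knockout against 178 in the wild type (0.24), the MAX-binding Mga 126 against 142 (-0.16) and the corepressor gene Sin3b 939 against 857 (0.14). ChREBP (Mlxipl) was not detected. Of 12 detected MYC cofactors 4 were higher, 7 lower and 1 (Hcfc1) identical, with a median of -0.02. By the brightest probe set the transcription adaptor gene Trrap (486 against 410, 0.26) alone passed the SD, followed by the helicase gene Ruvbl1 (404 against 469, -0.20) and Zbtb17, the MIZ1 gene through which MYC represses (318 against 286, 0.17). Other probe sets went further for the kinase gene Cdk9 (0.10 in the brightest and 0.72 in the other) and the acetyltransferase gene Kat2a (-0.16 in the brightest, with all 3 lower, down to -0.41). The same held for Actl6a (-0.02 in the brightest, up to 0.58) and Hcfc1 (identical in the brightest, down to -0.43). In the wider network the probe sets of Hdac2 gave -0.12 in the brightest and up to 0.70.

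Genes that set the stability of MYC protein also went both ways, with 4 of 11 higher, 6 lower, 1 identical and a median of -0.06. Fbxw7, the ubiquitin ligase subunit best known for MYC degradation, was the identical one, at 173 on both arrays. Usp36, a nucleolar deubiquitinase that stabilises MYC, read 172 in the knockout against 246 in the wild type (-0.50), but its 3 probe sets ran up to 0.38. The ubiquitin ligase gene Stub1 (-0.26, both probe sets lower) and Cip2a, an inhibitor of the phosphatase PP2A (-0.18), were the next largest. Gsk3b counted as lower by its brightest probe set (-0.06), but its 6 probe sets had a median of 0.30 and ran up to 0.71. Those of Huwe1 ran from -0.19 to 0.53. With the median over the probe sets of each gene, 5 of the 11 were lower and the list median was 0.04. Protein levels were not measured.

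Genes known to be activated by MYC were mostly lower in the knockout, although Myc and Mycn themselves were higher by their brightest probe sets. Over 3 lists, 55 of 62 detected targets were lower, 6 higher and 1 identical, with a median of -0.23, where 50% of all detected genes were lower. The lists were chosen with earlier results of these data known, so these counts are a description only. The differences were small: 5 of the 62 were at least 1.5-fold lower, against 1.55% of all detected genes, and none of the 62 was 1.5-fold higher, against 2.33%. Bright probe sets tended to be lower in general, with 57.2% lower and a median of -0.04 among probe sets above the 75th percentile of detected ones, and 49 of the 62 targets lay there. Of those 49, 43 were lower, with a median of -0.28. Several targets, such as Slc7a5 and Hk2, are known to respond to other growth regulators as well, and the part of these was not tested.

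Ribosome biogenesis genes were nearly all lower. Of 28 detected genes 26 were lower, 13 of them by more than the SD, against 16.2% of all genes, and the median was -0.21. Rrp12, a factor for export of ribosomal subunits, read 82.8 in the knockout against 134 in the wild type (-0.69). Nolc1, a nucleolar phosphoprotein gene, read 341 against 524 (-0.61, with 3 of 3 probe sets lower), and Ddx21, a nucleolar helicase gene, read 531 against 746 (-0.48, both lower). Of 19 genes with more than 1 detected probe set, 17 were lower in all of them. The same share over all genes was not computed, so this count has no background beside it. The 2 genes not lower were Ppan (433 against 429, 0.03) and Pes1, whose deposited value of 402 was the same on both arrays. The abundant nucleolar gene Npm1 hardly differed (7279 against 7468, -0.02).

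Biosynthesis and transport genes were mostly lower as well, with 18 of 21 lower, 3 higher and a median of -0.34. Slc16a1, a lactate transporter gene, read 295 in the knockout against 544 in the wild type (-0.87). The amino acid transporter gene Slc7a5 read 321 against 532 (-0.72) and the cytochrome c gene Cycs 2077 against 3272 (-0.64, with 3 of 3 probe sets lower). The brightest probe sets of Odc1, Prps2 and Paics were higher, although Prps2 and Paics had others down to -0.23 and -0.16. In the third list, of cell cycle, translation and chaperone genes, 11 of 13 were lower and the median was -0.15, inside the probe set SD. Its largest differences were in the cap-binding factor gene Eif4e (446 against 586, -0.38), the nucleotide hydrolase gene Dctpp1 (635 against 820, -0.35) and the translation inhibitor gene Eif4ebp1 (652 against 827, -0.33, but up to 0.16 in another probe set).

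**Figure D3:**
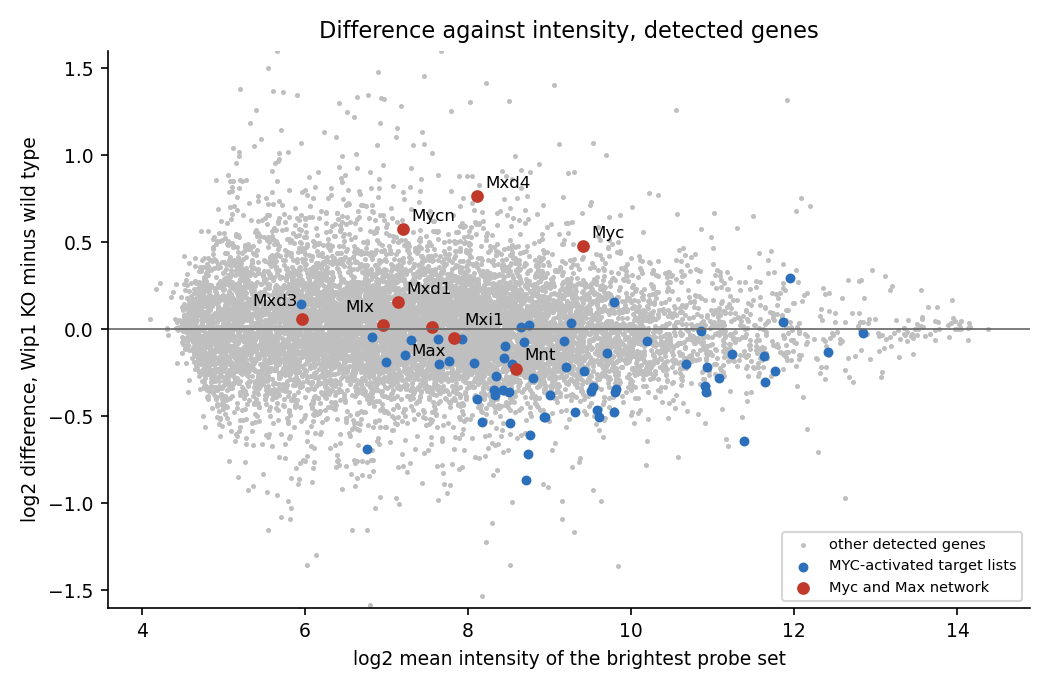
Log2 difference, Wip1 knockout minus wild type, against log2 mean intensity for the brightest probe set of each detected gene, with the 9 detected network genes in red, the 62 targets in blue and other genes in grey; 12 genes beyond 1.6 either way are not drawn. Mxd4, Mycn and Myc lie above 0 while most targets, which are bright, lie below it.

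The E-box CACGTG was searched in the promoters of these targets too. Promoters were at hand for 51 of the 62, and 13 of them (25.5%) held the motif, against 11.8% of 9289 detected genes. Of the 13 with the motif 11 were lower, with a median of -0.33, and of the 38 without it 34 were lower, with a median of -0.21. These counts are a description and the gap between them was not tested. For each list the promoter of the lowest target with a motif is shown, with the motif in capitals.
Nop2 (ribosome biogenesis), chr6:125131633-125131932, plus strand: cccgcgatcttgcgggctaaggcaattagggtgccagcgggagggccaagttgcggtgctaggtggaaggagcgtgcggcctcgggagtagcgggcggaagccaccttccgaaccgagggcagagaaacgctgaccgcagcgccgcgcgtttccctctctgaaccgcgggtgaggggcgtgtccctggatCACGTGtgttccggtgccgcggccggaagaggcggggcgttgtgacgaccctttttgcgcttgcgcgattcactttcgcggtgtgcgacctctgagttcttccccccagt
Slc16a1 (transport), chr3:104638414-104638713, plus strand: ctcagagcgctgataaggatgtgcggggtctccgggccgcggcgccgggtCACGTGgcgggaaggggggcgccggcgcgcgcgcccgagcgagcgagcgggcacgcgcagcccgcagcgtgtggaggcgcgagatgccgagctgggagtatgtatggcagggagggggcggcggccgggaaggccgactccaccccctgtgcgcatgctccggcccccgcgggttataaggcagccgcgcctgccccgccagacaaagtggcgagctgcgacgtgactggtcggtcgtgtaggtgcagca
Eif4e (translation), chr3:138527018-138527317, plus strand: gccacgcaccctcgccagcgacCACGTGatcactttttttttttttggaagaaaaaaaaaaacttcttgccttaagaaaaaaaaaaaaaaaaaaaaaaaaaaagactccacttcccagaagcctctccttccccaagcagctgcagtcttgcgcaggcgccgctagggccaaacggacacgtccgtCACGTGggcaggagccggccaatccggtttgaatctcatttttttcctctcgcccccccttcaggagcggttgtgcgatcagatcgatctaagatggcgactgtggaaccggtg

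Nop2, a ribosomal RNA methyltransferase gene, read 279 in the knockout against 366 in the wild type (-0.38), and its motif began 60 bases before the start. The motif of Slc16a1 began 200 bases before the start. Those of Eif4e began 228 and 64 bases before the second of its annotated starts.

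Genes known to be repressed by MYC went both ways, with 5 of 10 detected members higher and 5 lower and a median of 0.02. Pdgfrb, a growth factor receptor gene of stromal cells, read 525 in the knockout against 281 in the wild type (0.92, with 0.35 in its other probe set). The cell cycle inhibitor gene Cdkn1a, also a p53 target, read 2480 against 3207 (-0.36), and Gas1 was under the floor in the knockout (23.1 against 31.7), lower by at least 0.28. The integrin gene Itgal (0.27, both probe sets higher) and Gadd45a (-0.23) also passed the SD, whereas the integrin gene Itga6 (-0.16) did not. The probe sets of the cell cycle inhibitor gene Cdkn1b gave 0.09 (the brightest) and 0.47. Of 4 targets of MLX with MondoA or ChREBP, Txnip, the best-known glucose-responsive one, read 1271 in the knockout against 978 in the wild type (0.39, both probe sets higher). Fasn (-0.14), Pklr (-0.11) and Arrdc4 (-0.06, but 0.25 in its other probe set) were lower by less than the SD.

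**Figure D4:**
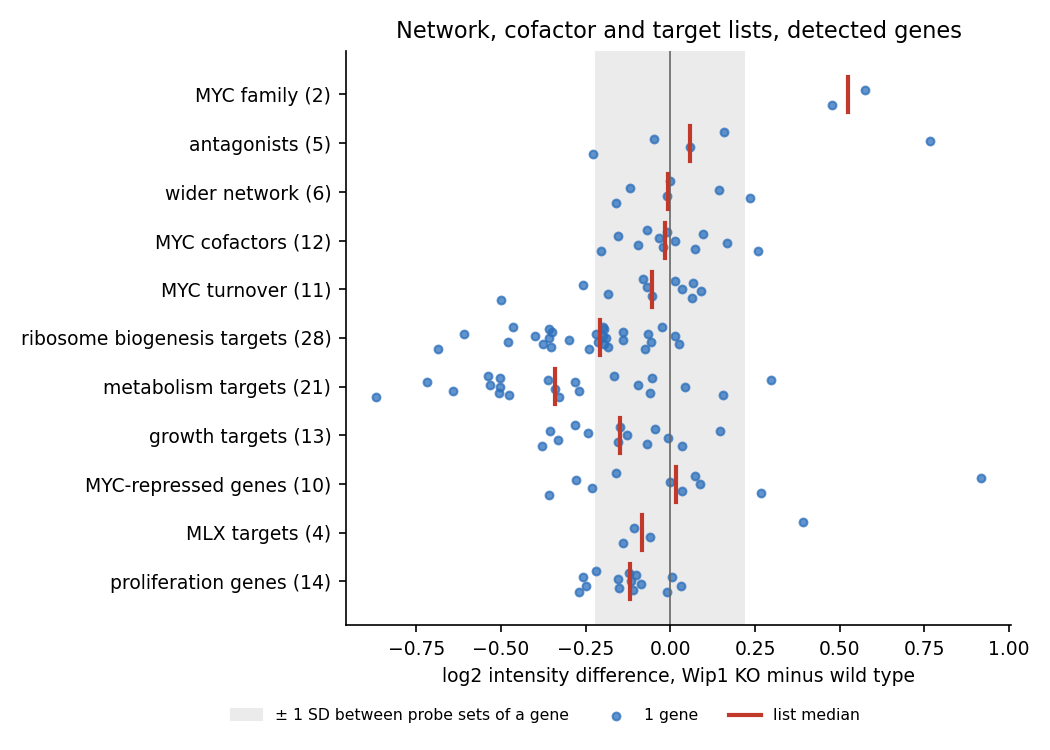
Log2 differences, Wip1 knockout minus wild type, of the detected genes of each list (blue points, number of genes in brackets) with the list median (red bar) and the band of 1 SD between probe sets (grey). The 3 target lists lie mostly left of 0, with medians of -0.21, -0.34 and -0.15, while cofactor and turnover genes centre near 0.

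Other features of the samples differed alongside the network. Proliferation genes were slightly lower, in 12 of 14 detected members, with a median of -0.12 and Aurkb (-0.27), Mcm3 (-0.26) and Mcm4 (-0.25) lowest. Of all 11440 detected genes 50% were lower, which is the background for this count and for the marker counts below. Most proliferation genes were bright, and above the 75th percentile of detected probe sets 57.2% were lower, with a median of -0.04. Lymphoid markers were higher in 5 of 8 detected members, lower in 2 and identical in 1 (Pax5, 37.2), with a summed intensity over 9 genes of 6524 in the knockout against 3303 in the wild type. Most of that sum came from Dntt (5492 against 2228, 1.31). Il7r read 175 against 70.3 (1.33), Ebf1 was under the floor in the wild type (32.0 against 20.7, higher by at least 0.36) and Cd3d was under it on both arrays. Megakaryocyte markers were lower in 7 of 7 detected members, with a sum over 9 genes of 752 against 1073, and Gp6 and Ppbp were under the floor. The lowest were Pf4 (164 against 283, -0.77), Vwf (77.5 against 124, -0.66) and Treml1 (78.0 against 116, -0.56). Myeloid markers were mixed (4 of 9 higher, 5 lower, sum 11266 against 12411, Adgre1 under the floor). Csf1r (770 against 294, 1.40), Irf8 (531 against 315, 0.77) and Itgam (61.9 against 40.6, 0.62) were higher in the knockout, while Mpo (3665 against 5498, -0.57) and Elane (123 against 172, -0.48) were lower. The drop in Mpo alone was larger than the drop in the myeloid sum. Erythroid markers were 3 higher, among them Car1 by 0.0036 after centring, and 3 lower (sum 396 against 466, Alas2 and Rhag under the floor), with Gata1 at 74.2 against 134 (-0.84), Slc4a1 at 40.1 against 28.7 (0.49) and Epor at 60.4 against 79.3 (-0.38). Stromal and endothelial markers had no value above the 75th percentile of its array. Of 5 detected, 3 were higher, 1 lower and Lepr at the floor (sum 307 against 297, Col1a1, Cxcl12, Cdh5 and Lum under it). Dcn (32.1 against 41.6, -0.36), Pecam1 (58.0 against 47.5, 0.30) and Kdr (73.2 against 67.1, 0.14) differed most. The part of these cell types, of proliferation and of the sex-linked difference in the network's values was not tested.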

How the data were processed

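The deposited values are linear intensities, 1 for each probe set on each array, from 3.79 to 23137 in the knockout and from 3.54 to 23180 in the wild type. Per the submitters' processing notes MAS5 was used, with no version stated; the sources used here name no other step. Of 45037 probe sets, 34945 had 1 gene in the platform annotation, 932 several and 9160 none listed. Of the first, 34741 were matched by gene identifier to RefSeq (GRCm38.p6) and took its gene symbol. Only probe sets with 1 gene were used. Intensities were taken to log2, the arrays centred, values under an array's median set to it, and each gene represented by its brightest probe set. A difference against a floored value is a bound. Fold sizes of 1.5 and 2 are fixed sizes, not tests. All probe sets of the members were named, Ppm1d, and the 3 members of each other list with the largest difference; any others were picked with their values known. The members and lists were chosen with earlier results of these data known. Alternatives were no centring, loess or quantile normalization, other floors, an offset, the median over the detected probe sets of a gene and probe set classes. The procedure was tested on simulated data. Python 3.11.15, pandas 2.3.3 and statsmodels 0.14.6 were used.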

Additional observations from a re-analysis of the deposited data

How the results depend on the processing

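Across 7 alternatives of scaling, floor and offset, Myc stayed between 0.46 and 0.51, the brightest Mycn probe set between 0.50 and 0.60 and the brightest Mxd4 probe set between 0.70 and 0.79; the second Mxd4 probe set was 0.25 with the floor at the 75th percentile, where its wild-type value is floored. Mycn had only 1 probe set above that floor. Once the _a_at, _s_at and _x_at classes of probe set, whose probes can match more than one transcript, are left out, Myc and Mlx have no value, and Mxd4 rests on the probe sets at 0.47 and 0.44, so no member reaches 1.5-fold. The activator minus antagonist gap ranged from 0.17 to 0.49 over the processing alternatives. Its highest value came without those probe set classes, where Myc has no value. The gap of 0.54 came from leaving out Mxd4, the antagonist with the largest difference, and is not a processing alternative. Medians of the ribosome biogenesis (-0.23 to -0.19), metabolism (-0.35 to -0.28) and growth targets (-0.17 to -0.12) stayed below 0 in all 10 alternatives. Small values changed sign in some: Max, Mlx, the Mxd3 probe set 1448878_at and the second Mycn probe set each lay within 0.06 of 0 throughout, and the medians of the wider network, cofactor, turnover, repressed, MLX, myeloid and stromal lists also crossed 0 in at least 1. With the floor at the 75th percentile the counts of genes at least 1.5-fold higher and lower were 123 and 81, and at least 2-fold 21 and 9; with the floor as an offset they were 153 and 99, and 26 and 14, against 266 and 177, and 53 and 24. The higher floor also moved the medians of the MLX targets (0.15), lymphoid markers (0.69) and megakaryocyte markers (-0.10), with fewer genes left. Leaving out probe sets identical on both arrays, and leaving out Mxd4, were chosen after seeing the data. No paired analysis was possible because each genotype has 1 array.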

Other observations

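The polyamine pathway, a classic output of MYC, was split between the arrays. Odc1, its first enzyme, read 4321 in the knockout against 3552 in the wild type (0.30, with its 3 probe sets from 0.07 to 0.35, all higher), whereas Srm, the spermidine synthase gene, read 639 against 915 (-0.51, 1 probe set). In purine synthesis Ppat (315 against 409, -0.36), Atic (792 against 1013, -0.34) and Gart (401 against 491, -0.28) were lower, while Paics read 3765 against 3688 (0.04). Both chains of an amino acid transporter, Slc7a5 (-0.72) and Slc3a2 (734 against 1030, -0.48), were lower. The serine hydroxymethyltransferase gene Shmt1 was lower in all 4 probe sets (-0.68 to -0.47), and Shmt2 in all 4 as well, but over a wider range (-0.50 to -0.01). These genes were picked with their values known.

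Of the 12 detected stem cell markers 6 were higher, 5 lower and 1 identical, where 50% of all detected genes were lower. The adult stem cell factor genes Hlf (1270 against 788, 0.70) and Hoxa9 (1773 against 1303, 0.46) were higher in the knockout. So were Cd34 (2025 against 1512, 0.43) and Kit (0.33). Slamf1 (144 against 230, -0.66), Tek (55.2 against 84.0, -0.59) and Gata2 (748 against 948, -0.33) were lower. The other markers did not pass the probe set SD by the brightest probe set. The probe sets of Meis1 ranged from -0.20 in the brightest to 1.82.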
